A study of Mus musculus with 48 samples.

Results

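GABAergic and glutamatergic neurons of the control mouse hypothalamus at E18.5 (embryonic day) were compared in their transcriptomes. Cells were chosen by their UMI counts (a UMI is a tagged transcript molecule) of the 2 transporters that load these transmitters into synaptic vesicles. A GABA cell held at least 1 UMI of *Slc32a1*, the vesicular GABA transporter, and 0 UMIs of *Slc17a6*, a vesicular glutamate transporter, and a Glut cell held the reverse. Cells of at least 2000 UMIs were used, and 5871 of 7186 control cells (14121 cells in the series) passed this minimum. Of these, 1343 were GABA cells (165 to 257 per embryo, 22.96% ± 3.52 of the cells, SD, n = 6 embryos) and 2496 were Glut cells (328 to 492 per embryo, 42.5% ± 1.84). Another 310 cells held both transcripts (Glut/GABA cells) and 1722 held neither. At the minimum depth, 13 GABA and 17 Glut cells of at least 1900 but under 2000 UMIs were left out, and 11 GABA and 15 Glut cells of at least 2000 but under 2100 UMIs were kept.

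Control embryos carried *Eed* fl/fl, a floxed allele of a subunit of polycomb repressor complex 2, without Cre. *Eed-cKO* embryos, used here only to ask whether the class difference depended on genotype, were *Eed* fl/fl with *Sox1-Cre*, a driver active across the early central nervous system. Both were E18.5 embryos on a mixed *B6:129S1* background. The 22 control libraries came from 6 embryos (2 female, 4 male) and the 26 *Eed-cKO* libraries from 9 embryos. Each hypothalamus was divided into pieces before papain dissociation and droplet capture on the ddSEQ platform. Both classes of an embryo came from the same dissections and libraries, so counts were summed per embryo and class and the embryo was kept as a block.

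Most neurons of the brain that release a fast transmitter release either GABA, which is made from glutamate by the glutamate decarboxylases Gad1 and Gad2, or glutamate itself. In the forebrain, homeobox factors such as Dlx1 and Dlx2 promote the GABAergic fate, whereas glutamatergic neurons arise from progenitors with other factors, basic helix-loop-helix proteins among them. The hypothalamus is unusual in that both transmitters are combined with a large set of neuropeptides that control feeding, water balance, reproduction and stress.

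The sums held 859260 to 1794580 UMIs per embryo for GABA cells and 2306134 to 3899529 for Glut cells. GABA cells held fewer UMIs than Glut cells in 6 of 6 embryos, with medians of 5445 ± 836 and 6830 ± 1202 per cell (SD, n = 6). This is given without a test, because a deeper cell is likelier to show its class transcript. With every cell thinned to 2000 UMIs, GABA cells held 1375 ± 16.3 genes and Glut cells 1377 ± 15, a difference of -1.67 ± 3.20 (exact two-sided permutation test over embryos, p = 0.4375). Library F4650_E2S4 of control embryo 5 stood apart, with 1207 cells against 189 to 396 in the other 21 control libraries and 13.8% Glut/GABA cells against 1.29% to 5.74%. Of 7164 barcodes in control, 22 occurred in 2 libraries.

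The class transcripts were sparse. *Slc32a1* was at 385 ± 29.5 CPM (the scaled share of all UMIs in a sum, here without TMM factors) in GABA cells and *Slc17a6* at 643 ± 37.1 in Glut cells, and both are 0 in the other class by the rule. The call rested on 1 UMI in 42.1% of GABA cells and in 20.7% of Glut cells. Among 243 cells with at least 10 UMIs of vascular, leptomeningeal or immune markers, which should lack both transcripts, *Slc32a1* was found in 8.64% (exact 95% interval 5.43% to 12.9%) and *Slc17a6* in 13.99% (9.89% to 19%), where cells had a median of 4949 UMIs. In all control cells of at least 2000 UMIs the shares were 28.2% and 47.8%, with a median of 5465 UMIs. How many calls of either class rest on free RNA was not tested, and intervals cover counting error only.

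Of 14217 genes tested with edgeR's quasi-likelihood test (both class transcripts left out), 896 passed an adjusted p of 0.05, which is 6.3% of the genes. Of these, 337 (2.37%) were higher and 559 (3.93%) lower in GABA than in Glut cells, and the median log2 fold change of all genes was -0.01. Without the embryo as a block 446 genes passed, and limma-voom with TREAT, DESeq2 and cells thinned to 2000 UMIs gave 391, 431 and 372. Without library F4650_E2S4, 841 passed. In 118 genes (0.83%) all GABA sums lay above all Glut sums, and in 233 (1.64%) below. Other single gene levels are given as CPM after TMM scaling, as mean ± SD over 6 embryos, and fold changes are fitted log2 values ± SE with Benjamini-Hochberg adjusted p.

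**Figure D1:**
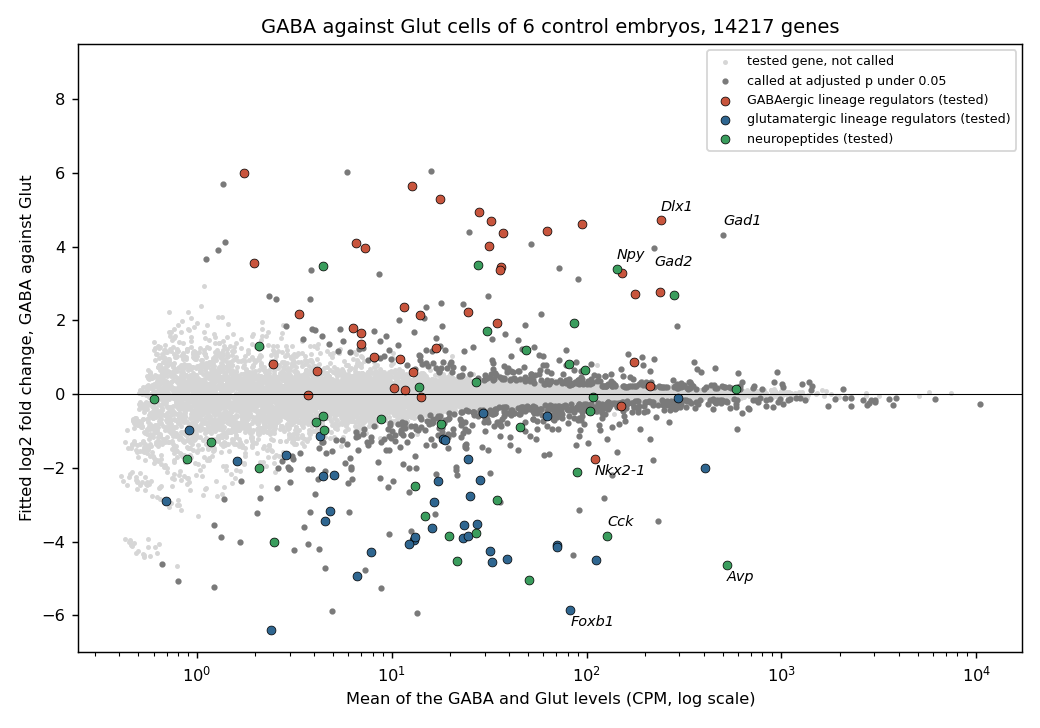
Each point is a tested gene, placed by the mean of its GABA and Glut levels (CPM, log axis) and its fitted log2 fold change, GABA against Glut. Called genes are dark grey, and the tested members of 3 lists are coloured, with *Dlx1* at 4.73, *Foxb1* at -5.85 and *Avp* at -4.63.

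The enzymes of GABA synthesis were among the clearest differences. *Gad1* was at 821 CPM in the lowest, 960 in the median and 1073 in the highest embryo in GABA cells, and at 32.3, 42.3 and 75.6 CPM in Glut cells. *Gad2* was at 365, 426 and 460 CPM in GABA cells and at 19.9, 25.2 and 39.4 CPM in Glut cells. For both enzymes every GABA sum lay above every Glut sum. The fold change was 4.33 ± 0.11 for *Gad1* (adjusted p = 6.22e-19) and 3.97 ± 0.10 for *Gad2* (adjusted p = 7.08e-19). At 2000 UMIs per cell, *Gad1* was detected in 74.7% of GABA cells, 6.12% of Glut cells and 4.94% of the non-neural cells, and *Gad2* in 50.6%, 4.97% and 6.58%. The Glut share of *Gad2* was below that of non-neural cells, which should lack the enzyme, and is not read as expression. The Glut share of *Gad1* was slightly above that of the 243 non-neural cells. This difference was not tested, and the *Gad1* share is not read as expression either. The part of free RNA and of missed class transcripts in the Glut levels was not tested.

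Of the 8 tested genes for GABA synthesis, uptake and breakdown, 4 rose, against 2.37% of all genes, and none fell, with a median log2 fold change of 0.37 against -0.01 over all genes. Besides both decarboxylases, *Abat*, the transaminase that degrades GABA, was at 129 ± 14.4 CPM in GABA and 89.8 ± 6.66 in Glut cells (0.52 ± 0.07, adjusted p = 5.79e-06). Its GABA sums also lay above all Glut sums. *Slc6a11* (0.09 ± 0.13), *Slc6a13* (-0.27 ± 0.63), *Aldh5a1* (0.21 ± 0.09) and *Slc38a1* (0.12 ± 0.06), which code for GABA transporters, a dehydrogenase of GABA breakdown and a glutamine transporter, did not pass.

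Genes of glutamate handling differed little. Of 9 tested, 1 fell, against 3.93% of all genes, and none rose, with a median of -0.09, and *Slc17a7* did not pass the filter on low counts. Log2 fold changes of glutaminase *Gls2*, aspartate aminotransferase *Got1*, glutamine transporter *Slc38a2* and the glutamate transporters *Slc1a1* and *Slc1a2*, none of which passed, were 0.34, 0.13, -0.02, -0.09 and -0.09. The vesicular transporter *Slc17a8* was at 5.71 ± 2.46 CPM in GABA and 8.20 ± 4.15 in Glut cells (-0.47 ± 0.29), and glutamine synthetase *Glul* at 94.8 ± 11.7 and 106 ± 11.4 CPM (-0.15 ± 0.07). The gene that fell, *Slc1a3*, is an astrocyte glutamate transporter, at 28.7 ± 17.7 and 44.97 ± 28.6 CPM with overlapping sums (-0.69 ± 0.20, adjusted p = 0.0388). Its call was lost without library F4650_E2S4 (adjusted p = 0.506) and without control embryo 1, 4 or 6. Its direction turned without cells that held glial or cycling markers (1.05, adjusted p = 0.186). *Slc1a3* is itself among these markers, so that filter removed cells by their *Slc1a3* UMIs, and the turn is not read as a result.

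Of 9 tested genes of other transmitters, 3 rose and 1 fell, against 2.37% and 3.93% of all genes, with a median of -0.32. The dopamine synthesis genes *Th* (40.9 ± 28.4 against 9.02 ± 9.37 CPM, 2.23 ± 0.27, adjusted p = 2.01e-06) and *Ddc* (57.4 ± 36.9 against 18.6 ± 6.45 CPM, 1.64 ± 0.19, adjusted p = 7.84e-07) were higher in GABA cells of 6 of 6 embryos. *Slc18a2*, the vesicular monoamine transporter, was at 54.1 ± 15.9 and 27.4 ± 5.42 CPM and higher in 5 of 6 (1.02 ± 0.16, adjusted p = 7.16e-05). The choline transporter *Slc5a7* was lower in 5 of 6, at 2.21 ± 1.77 and 7.64 ± 2.34 CPM (-1.56 ± 0.42, adjusted p = 0.0212), and its call was lost without any one of control embryos 1, 3, 4, 5 and 6 (adjusted p up to 0.0908). The ranges of all 4 overlapped between classes.

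**Figure D2:**
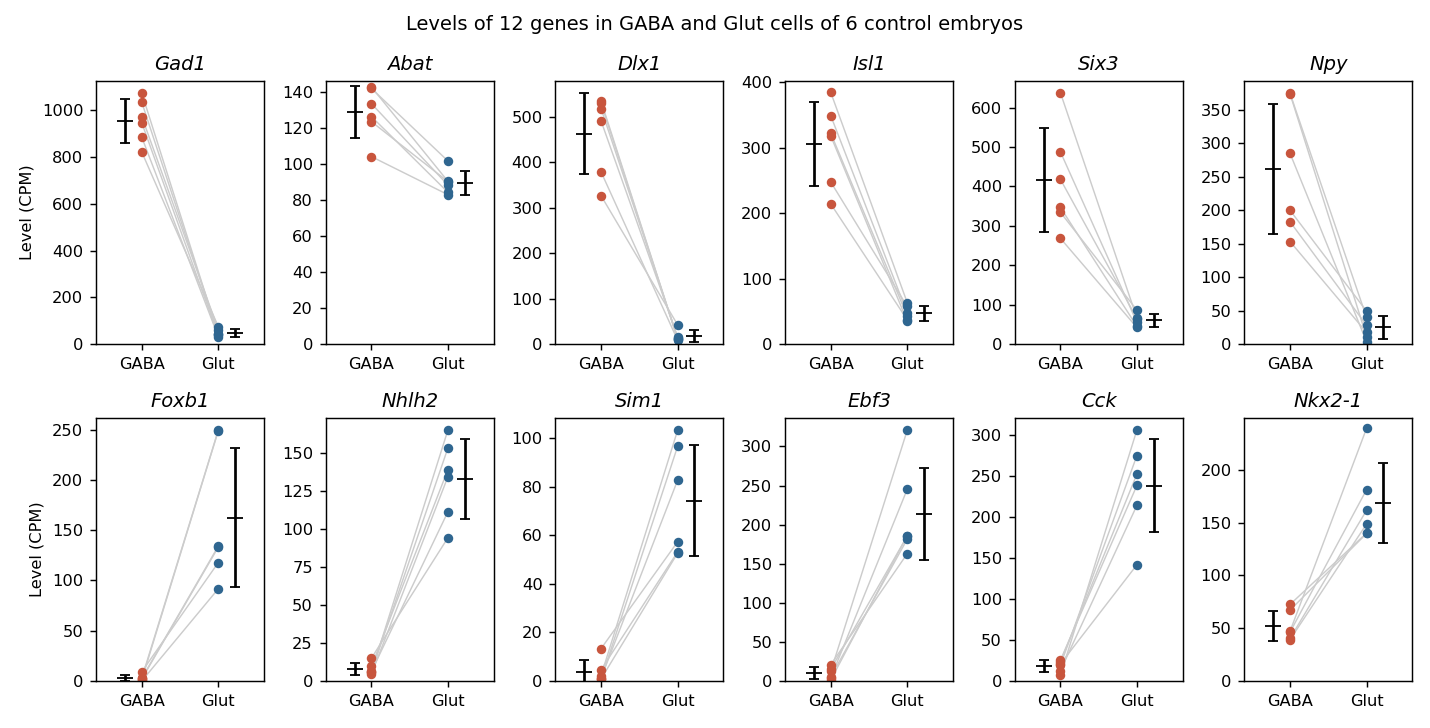
Levels (CPM, linear axes from 0) of 12 genes in GABA and Glut cells, with 1 point per embryo and class, lines joining the sums of 1 embryo and bars for mean ± SD of 6 embryos. The 6 genes of the upper row are higher and the 6 of the lower row lower in GABA cells in every embryo.

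Transcription factors known from GABAergic lineages were mostly higher in GABA cells. Of 40 tested members of a list of 41 (*Gsx2* did not pass the filter), 29 rose, 1 fell and 10 did not pass. Over all genes 2.37% rose and 3.93% fell. The median log2 fold change of the list, which was chosen with earlier results of these data known, was 2.21. Among the 12 sums, 24 of the 40 had all GABA sums above all Glut sums, against 0.83% of all genes. *Dlx1*, a homeobox factor of forebrain interneurons, was at 326, 504 and 534 CPM (lowest, median and highest embryo) in GABA cells and at 8.90, 13.5 and 42.7 in Glut cells (4.73 ± 0.19, adjusted p = 2.23e-15). The classes did not overlap, and the highest Glut value was that of control embryo 5, which holds library F4650_E2S4. *Dlx2* was at 119 ± 26.5 and 5.43 ± 3.83 CPM (4.43 ± 0.21, adjusted p = 7.54e-14).

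*Isl1*, *Six3* and *Six6* of the same list rose too. *Isl1*, a LIM homeobox factor, was at 214, 320 and 384 CPM in GABA cells and at 34.9, 45.2 and 63.5 in Glut cells (2.70 ± 0.09, adjusted p = 1.52e-16). *Six3* was at 268, 382 and 638 CPM against 42.4, 60.3 and 86.5 (2.77 ± 0.10, adjusted p = 9.30e-16), and its relative *Six6* at 67.0 ± 11.6 against 6.27 ± 1.78 CPM (3.44 ± 0.17, adjusted p = 1.15e-13). All 6 GABA sums of these homeobox genes lay above all Glut sums. *Six3*, like *Six6*, *Gata3*, *Ebf3* and *Foxb1*, shares exon positions with a gene on the opposite strand, and whether the counting used strand is not given in the sources used here.

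The member that fell was *Nkx2-1*, a factor of the ventral hypothalamus and of interneuron progenitors. It was at 39.2, 46.7 and 72.5 CPM in GABA cells and at 140, 155 and 239 in Glut cells, with no overlap (-1.75 ± 0.12, adjusted p = 1.68e-10). It was detected in 9.09% of GABA and 22.1% of Glut cells at 2000 UMIs.

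The 10 largest rises, by fitted fold change among called genes with at least 100 UMIs and one sign in all 6 embryos, held 6 further genes of these kinds besides *Dlx1* and *Dlx2*. They were *Gata3* (24.9 ± 15.9 against 0.499 ± 0.645 CPM, 5.66 ± 0.37), *Lhx8* (34.4 ± 27.5 against 0.871 ± 1.07 CPM, 5.30 ± 0.33), *Sp8* (54.2 ± 11.3 against 1.85 ± 1.41 CPM, 4.94 ± 0.24), *Lhx6* (62.3 ± 48.6 against 2.27 ± 1.98 CPM, 4.69 ± 0.28) and the noncoding genes *Dlx1as* (47.4 ± 17.99 against 2.25 ± 1.57 CPM, 4.40 ± 0.25) and *Dlx6os1* (71.5 ± 22.4 against 3.41 ± 2.35 CPM, 4.36 ± 0.26). Their adjusted p ranged up to 2.97e-11. The sums overlapped only for *Lhx8* among the 10. *Dlx1as* (chr2:71516454-71537891, minus strand, GRCm38) overlaps exons of *Dlx1* (chr2:71528113-71533981, plus strand), so that their counts cannot be told apart if strand was not used. Another of the 10, *Pmaip1*, codes for a proapoptotic protein and was at 31.4 ± 33.0 against 0.385 ± 0.314 CPM (6.04 ± 0.35, adjusted p = 3.75e-12), with 2.77 CPM in the lowest and 92.0 in the highest GABA sum.

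The GABAergic factors shared cells to different extents. UMIs of *Dlx1* were present in 883, of *Isl1* in 629, of *Six3* in 581 and of *Gata3* in 37 of the 1343 GABA cells. *Dlx1*, present in 65.7% of all GABA cells, was found in 86.7% of the 528 cells with *Dlx2*, in 288 of 336 with *Dlx6os1*, 146 of 177 with *Sp8* and 96 of 123 with *Lhx6*. *Isl1* and *Six3* were found together in 308 cells. Of the 37 cells with *Gata3*, 22 also held *Tal1* and 24 *Six3*, but 3 held *Dlx1* and none *Dlx2*, which was present in 39.3% of all GABA cells. *Gata3* and *Tal1* are known as a pair of factors of GABAergic neurons in posterior brain regions. *Lhx6* was found with *Isl1* in 16 of its 123 cells, while *Isl1* was present in 46.8% of all GABA cells. These pairs were chosen after their values were seen, and counts of UMI-positive cells rise with depth, so that they are a description of these cells.

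The counterpart list of glutamatergic lineage regulators fell almost throughout. Of 38 tested members of a list of 42 (the other 4 were absent from the counts used here), 32 fell, none rose and 6 did not pass. Over all genes 3.93% fell and 2.37% rose. The median log2 fold change of this list, also chosen with earlier results of these data known, was -3.31. In 25 of the 38, all GABA sums lay below all Glut sums, against 1.64% of all genes. The medians of both regulator lists did not change with genes at 0 in a class set to their lower bound.

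*Foxb1*, a forkhead factor of the mammillary region, was at 0, 2.25 and 9.17 CPM in GABA cells and at 91.6, 134 and 249 in Glut cells (-5.85 ± 0.21, adjusted p = 4.13e-16). *Nhlh2*, a basic helix-loop-helix factor, was at 4.60, 6.19 and 15.01 CPM against 94.3, 137 and 165 (-4.10 ± 0.16, adjusted p = 2.12e-15). For neither of them did the classes overlap.

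*Ebf3*, an early B cell factor family member, was at 1.15, 8.66 and 20.8 CPM in GABA cells and at 163, 186 and 321 in Glut cells (-4.50 ± 0.19, adjusted p = 6.17e-15). *Sim1*, which is required for neurons of the paraventricular and supraoptic nuclei, was at 0.643, 1.74 and 13.3 CPM against 52.7, 70.0 and 103 (-4.47 ± 0.28, adjusted p = 1.43e-11), and *Lhx9* at 3.20 ± 4.03 against 60.4 ± 38.8 CPM (-4.27 ± 0.27, adjusted p = 1.28e-11). *Lhx9* overlapped between the classes and *Ebf3* and *Sim1* did not. *Foxb1* was detected in 15.1% of Glut cells, 0.728% of GABA cells and 0.823% of the non-neural cells at 2000 UMIs, and *Nhlh2* in 20.4%, 1.55% and 0.412%.

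Among the 10 largest falls, *Fezf1*, a zinc finger factor of the ventromedial region, was at 3.04 ± 5.19 against 62.2 ± 14.8 CPM (-4.56 ± 0.34, adjusted p = 3.50e-10). Some held almost no UMI in GABA cells. *Vgll2*, a transcription cofactor, had 3 UMIs in GABA and 507 in Glut cells, a ratio of 73.2 between their shares of all UMIs (exact 95% interval 24.9 to 356, counting error only). *Mab21l1* had 3 and 314 (ratio 45.3, 15.4 to 221), the helix-loop-helix gene *Neurod2* 3 and 239 (34.5, 11.7 to 168) and *Samd3* 2 and 154 (33.3, 9.07 to 278). *B230323A14Rik*, a noncoding gene that overlaps *Foxb1* on the opposite strand (chr9:69758740-69830845, plus strand), was at 0.609 ± 1.04 against 14.02 ± 7.12 CPM (-4.77 ± 0.52, adjusted p = 3.13e-07). The 6 GABA sums of each of the 10 largest falls lay below all Glut sums.

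Within Glut cells these factors also shared cells to different extents. *Nhlh2* was present in 1040 and *Foxb1* in 504 of 2496 Glut cells. Of the *Foxb1* cells, 303 held *Nhlh2* and 249 *Sim1*, but 10 held *Lhx9* and 13 *Lmx1a*. *Lmx1a*, found in 362 cells, was accompanied by *Foxa1* in 148 and by *Sim1* in 11 of them. At 2000 UMIs, at least 1 of 38 glutamatergic regulators was detected in 91.6% ± 3.11 of Glut and 59.1% ± 5.67 of GABA cells, and in 43.2% of non-neural cells. At least 1 of 41 GABAergic regulators was detected in 97.4% ± 0.760 of GABA and 67.9% ± 2.64 of Glut cells, and in 73.3% of non-neural cells.

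Of the promoters in RefSeq (GRCm38.p6), 10762 belonged to tested genes. The motif TAATTA, a core bound by homeobox factors, was present on either strand (it is its own reverse complement) in the 250 bases before the start of 2.25% of them, of 3.12% for genes higher and of 1.78% for genes lower in GABA cells. The E-box CAGCTG, also its own reverse complement, was present in 11.9%, 13.7% and 13.5%, and the E-box CATATG in 1.42%, 1.95% and 2.28%. The shares were not tested. Promoters of 4 genes described here, 2 from each direction and without an annotated exon in the window, are shown 5′ to 3′, with CAGCTG in capitals: *Lhx6* (chr2:36105409-36105658, minus strand), *Dlx2* (chr2:71546755-71547004, minus strand), *Ebf3* (chr7:137314446-137314695, minus strand) and *Cck* (chr9:121495695-121495944, minus strand).
Lhx6: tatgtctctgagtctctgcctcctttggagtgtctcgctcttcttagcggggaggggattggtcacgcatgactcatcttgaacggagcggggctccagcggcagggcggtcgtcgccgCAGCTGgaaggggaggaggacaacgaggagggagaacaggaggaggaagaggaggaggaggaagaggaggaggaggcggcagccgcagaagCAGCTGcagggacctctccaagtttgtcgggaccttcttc
Dlx2: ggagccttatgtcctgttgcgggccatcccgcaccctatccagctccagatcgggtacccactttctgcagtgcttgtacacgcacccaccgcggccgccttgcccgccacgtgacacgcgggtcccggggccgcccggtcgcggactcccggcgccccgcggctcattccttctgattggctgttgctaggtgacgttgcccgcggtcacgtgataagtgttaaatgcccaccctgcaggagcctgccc
Ebf3: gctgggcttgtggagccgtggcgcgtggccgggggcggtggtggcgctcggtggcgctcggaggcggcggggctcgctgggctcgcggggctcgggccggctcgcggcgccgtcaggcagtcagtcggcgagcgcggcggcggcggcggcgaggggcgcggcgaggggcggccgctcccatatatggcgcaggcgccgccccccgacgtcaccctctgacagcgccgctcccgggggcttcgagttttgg
Cck: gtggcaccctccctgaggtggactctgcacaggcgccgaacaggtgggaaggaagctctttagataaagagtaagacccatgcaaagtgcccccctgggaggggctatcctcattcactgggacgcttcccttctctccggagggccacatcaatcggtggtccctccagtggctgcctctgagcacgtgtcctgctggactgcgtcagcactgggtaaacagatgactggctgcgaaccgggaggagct
*Lhx6* held CAGCTG at 2 positions, and none of the 3 motifs was found in the other windows.

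Neuropeptides split between the classes. Of 36 tested genes of a list of 40, 8 rose, 13 fell and 15 did not pass (2.37% rose and 3.93% fell over all genes), with a median log2 fold change of -0.72. *Npy* and *Agrp*, peptides of feeding neurons of the arcuate nucleus, rose: *Npy* was at 153, 242 and 374 CPM in GABA cells and at 3.62, 22.9 and 49.4 in Glut cells (3.41 ± 0.25, adjusted p = 4.27e-10), and *Agrp* at 50.9 ± 35.1 against 4.45 ± 5.34 CPM (3.52 ± 0.42, adjusted p = 1.64e-06). *Sst*, somatostatin, was at 488 ± 274 against 72.5 ± 52.9 CPM (2.68 ± 0.30, adjusted p = 6.14e-07), and *Pnoc*, prepronociceptin, at 137 ± 30.04 against 35.1 ± 9.05 CPM (1.94 ± 0.11, adjusted p = 3.70e-12). The sums of these 4 peptide genes did not overlap between the classes. *Penk*, proenkephalin (1.18 ± 0.19, adjusted p = 1.23e-04), and *Gal*, galanin (0.83 ± 0.18, adjusted p = 0.00401), were higher with overlapping sums, and DESeq2 did not call *Gal* (adjusted p = 0.218).

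Among peptides lower in GABA cells, *Cck*, cholecystokinin, had the smallest adjusted p, at 6.65, 19.99 and 25.3 CPM in GABA and 142, 245 and 306 in Glut cells (-3.84 ± 0.15, adjusted p = 2.12e-15). *Bdnf*, a neurotrophin, was at 8.45 ± 2.60 against 60.8 ± 12.4 CPM (-2.86 ± 0.14, adjusted p = 2.12e-13), and *Adcyap1*, the peptide PACAP, at 3.95 ± 2.31 against 50.2 ± 6.24 CPM (-3.76 ± 0.20, adjusted p = 5.89e-13). *Nxph4*, neurexophilin 4, was at 2.53 ± 2.06 against 37.0 ± 7.70 CPM (-3.85 ± 0.24, adjusted p = 1.42e-11). None of these overlapped.

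The magnocellular peptide vasopressin varied widely among embryos. *Avp* was at 5.03, 32.2 and 121 CPM in GABA cells and at 319, 923 and 2186 in Glut cells (-4.63 ± 0.25, adjusted p = 9.96e-13), without overlap. It was nonetheless detected in similar shares of cells at 2000 UMIs, 2.34% of GABA, 2.77% of Glut and 2.47% of non-neural cells, and no order is read from these shares. *Pmch*, melanin-concentrating hormone of the lateral hypothalamus, was at 0.871, 2.11 and 9.17 CPM against 0.686, 56.2 and 355, lower in 5 of 6 embryos and with overlap (-5.05 ± 0.33, adjusted p = 2.78e-11). *Oxt* (-2.11), *Trh* (-3.31), *Hcrt* (-4.52) and *Crh* (-2.48), peptides of the paraventricular and lateral hypothalamus, were also among the 13, and *Pomc* (-0.68, adjusted p = 0.147) was not.

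**Figure D3:**
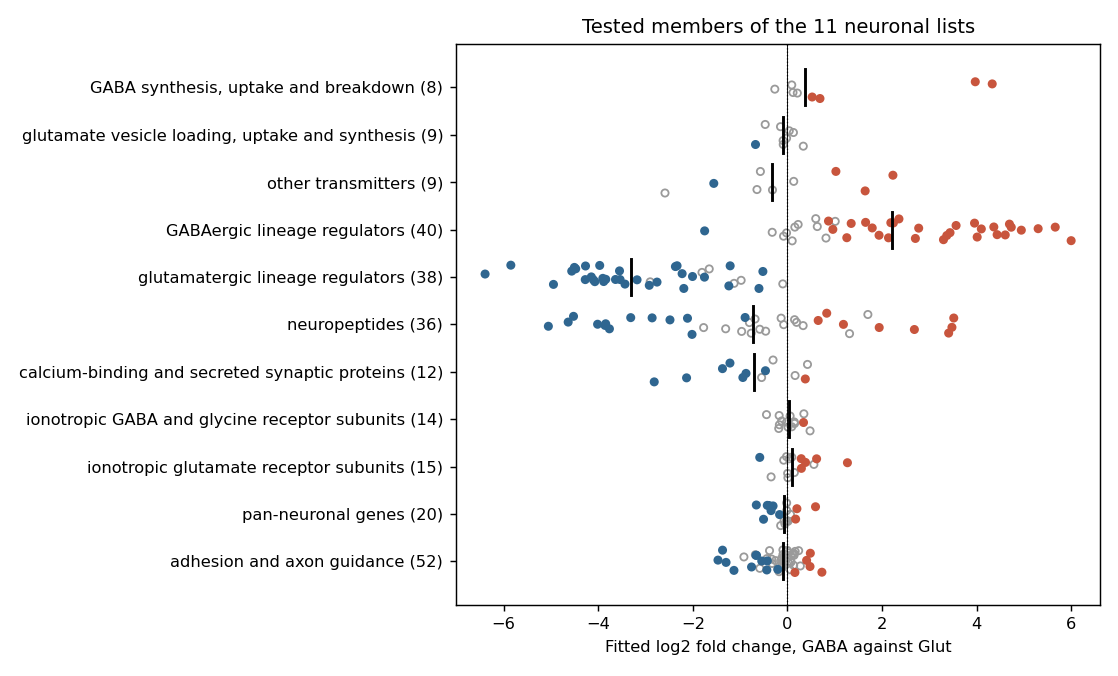
Fitted log2 fold changes, GABA against Glut, of the tested members of 11 lists (number tested in brackets), with filled points for called (red higher, blue lower) and open points for other genes. Black bars are list medians, from 2.21 for GABAergic to -3.31 for glutamatergic lineage regulators, and the dotted line is the median of all genes.

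Secreted synaptic and calcium-binding proteins were mostly lower in GABA cells. Of 12 tested, 1 rose and 7 fell (all genes: 2.37% and 3.93%), with a median of -0.71. *Cbln1*, a cerebellin that organises synapses, was at 20.1, 28.6 and 50.9 CPM in GABA cells and at 170, 206 and 290 in Glut cells (-2.81 ± 0.14, adjusted p = 1.47e-13), with no overlap. *Cbln2* (126 ± 49.1 against 300 ± 54.0 CPM, -1.21 ± 0.16, adjusted p = 7.19e-06) and the pentraxin *Nptx2* (12.2 ± 4.11 against 51.7 ± 10.6 CPM, -2.13 ± 0.15, adjusted p = 9.25e-11) did not overlap either. *Calb2* (-0.94), *C1ql3* (-1.37) and *Calb1* (-0.46) fell with overlapping sums, and the last 2 were not called at 2000 UMIs per cell (adjusted p = 0.211 and 0.0919). *Reln*, reelin, was at 106 ± 31.7 against 81.2 ± 22.2 CPM (0.38 ± 0.11, adjusted p = 0.0333), and its call was lost without library F4650_E2S4 and without any one of control embryos 1 to 4 (adjusted p up to 0.237).

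Receptor subunits differed by small amounts. Of 14 tested subunits of ionotropic GABA and glycine receptors 1 rose and none fell (median 0.03), and of 15 of ionotropic glutamate receptors 5 rose and 1 fell (median 0.09). Over all genes 2.37% rose and 3.93% fell, so that the GABA and glycine receptor count was near the background. *Grik3*, a kainate receptor subunit, was at 65.9, 72.7 and 90.6 CPM in GABA cells and at 24.6, 30.5 and 45.3 in Glut cells (1.27 ± 0.11, adjusted p = 1.46e-08). The AMPA subunit *Gria3* (75.8 ± 10.3 against 49.3 ± 7.25 CPM, 0.62 ± 0.08, adjusted p = 1.22e-05) and *Grik3* did not overlap, nor did *Grin3a*, an NMDA subunit that was lower in GABA cells (124 ± 19.9 against 186 ± 25.3 CPM, -0.59 ± 0.09, adjusted p = 5.28e-05). *Grik1* (0.38), *Gria1* (0.30), *Gria4* (0.29) and the GABA receptor subunit *Gabrg1* (0.33) rose with overlapping sums. *Gabrg1* was not called without library F4650_E2S4 or control embryo 1 or 6 (adjusted p up to 0.0750), and *Gria4* not without control embryo 2, 3 or 6 (adjusted p up to 0.133). With cells thinned to 2000 UMIs, edgeR did not call *Gria3* (adjusted p = 0.248), *Gria1*, *Gria4* or *Gabrg1*. *Grik1*, *Gria1*, *Gria4* and *Gabrg1* were also not called without the embryo as a block or by limma-voom with TREAT.

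Of 20 genes that most neurons express, 3 rose and 8 fell (all genes: 2.37% and 3.93%), with a median of -0.06. *Syt1*, a synaptotagmin of synaptic vesicles, was at 464 ± 73.8 against 307 ± 35.0 CPM (0.59 ± 0.06, adjusted p = 1.12e-07), and *Stmn2*, a regulator of neuronal microtubules, at 3336 ± 137 against 4126 ± 336 CPM (-0.30 ± 0.03, adjusted p = 9.22e-08). *Syt4* (-0.50), *Tubb3* (-0.33), *Nefl* (-0.43), *Rbfox3* (-0.39) and *Gap43* (-0.17) were lower, and *Snap25* (0.20) and *Elavl4* (0.17) higher. *Stmn2* was the gene of this list without overlap. *Snap25* was not called without library F4650_E2S4 (adjusted p = 0.0897). limma-voom with TREAT, which tests for changes beyond log2 0.18, did not call *Nefl*, *Rbfox3*, *Gap43*, *Snap25* or *Elavl4*. Without the embryo as a block *Rbfox3*, *Gap43*, *Snap25* and *Elavl4* were not called, and with thinned cells *Nefl*, *Rbfox3* and *Elavl4* were not. The summed level of the 20 genes was 16127 to 17544 CPM (without TMM scaling, as all summed levels) in GABA and 17247 to 19386 in Glut cells.

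Adhesion and axon guidance genes showed both directions. Of 52 tested, 5 rose, 11 fell and 36 did not pass (all genes: 2.37% and 3.93%), with a median of -0.09. *Ntng1*, a netrin G gene, was at 38.8, 48.6 and 63.3 CPM in GABA cells and at 92.2, 122 and 186 in Glut cells (-1.37 ± 0.08, adjusted p = 1.15e-11). The ephrin receptor gene *Epha7* (-1.13 ± 0.11, adjusted p = 4.92e-08), the netrin gene *Ntn1* (-1.47 ± 0.17, adjusted p = 1.40e-06), the Slit receptor gene *Robo2* (-0.65 ± 0.08, adjusted p = 2.88e-06), *Cntn4* (-0.76 ± 0.12) and *Cdh11* (-0.67 ± 0.11) were lower as well. Their sums and those of *Ntng1* did not overlap. *Efna5*, an ephrin, was at 194 ± 39.5 against 139 ± 18.55 CPM (0.48 ± 0.07, adjusted p = 1.19e-05), and *Unc5d* (0.48), *Sema3c* (0.73), *Pcdh8* (0.41) and *Efnb3* (0.16) were higher too. The *Efnb3* call was lost without control embryo 1, 3 or 4 (adjusted p up to 0.168). With cells thinned to 2000 UMIs, edgeR did not call *Ntn1* (adjusted p = 0.0546), *Robo2* (0.500), *Unc5d* (0.304), *Sema3c* (0.798) or *Efnb3*. *Pcdh8* and *Efnb3* were not called by DESeq2 or by limma-voom with TREAT.

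Markers of other cell types were detected in both classes. Cells with glial or cycling markers (at least 3 UMIs) made up 10.3% of GABA and 14.3% of Glut cells, and cells with non-neural markers (at least 2 UMIs) 1.79% and 2.44%. Of 6 tested astrocyte markers 2 fell (*Gja1*, 11.4 ± 10.6 against 27.4 ± 12.8 CPM, and *Slc1a3*). Over all genes 3.93% fell, which is the background for the marker counts here. The summed level of the astrocyte markers was 50.4 to 394 CPM in GABA and 98.7 to 510 in Glut cells. Of 3 tanycyte markers 1 fell (*Vcan*, -0.44), and of 5 ependymal markers 2 (*Foxj1*, -1.17, and *Ccdc153*, with 0 UMIs in GABA and 38 in Glut cells). Of 5 leptomeningeal markers 3 fell (*Dcn*, 3 against 149 UMIs, *Col3a1*, -1.83, and *Col1a1*, -2.02), at 0.849 to 60.8 CPM in GABA, 2.07 to 102 in Glut and 4422 in the non-neural cells. The non-neural cells were picked by markers that include these leptomeningeal ones. None of the tested oligodendrocyte precursor, cycling, endothelial, pericyte, microglia (5 genes each) or pituitary (2 genes) markers passed in edgeR. Their summed levels were 3.73 to 65.2, 1.74 to 28.1, 0 to 77.2, 1.16 to 33.4, 0 to 51.8 and 166 to 245 CPM in GABA cells, and 5.36 to 38.9, 3.25 to 31.4, 4.62 to 45.7, 4.73 to 25.6, 0.513 to 41.2 and 184 to 244 in Glut cells. The pituitary markers were at 31.2 CPM in the non-neural cells, below both classes, and the astrocyte markers at 1452, above both. Without cells that held non-neural markers 1020 genes passed, and without those with glial or cycling markers 952. The part of these cells in single gene results was not tested beyond this.

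Glut/GABA cells and cells with neither class transcript were set beside both classes, without a test and with the 4 kinds of sum scaled together. In Glut/GABA cells *Gad1* was at 497 ± 128 CPM, between 974 ± 90.2 in GABA and 49.55 ± 16.99 in Glut cells, and *Dlx1* at 217 ± 64.6, between 472 ± 89.6 and 18.07 ± 12.7. The glutamatergic factors were intermediate in the same cells, with *Nhlh2* at 62.8 ± 21.1 (8.06 ± 3.99 in GABA and 135 ± 26.9 in Glut cells) and *Ebf3* at 113 ± 60.9 CPM. Cells with neither transcript held *Gad1* at 300 ± 69.2 and *Dlx1* at 200 ± 38.1 CPM, above Glut cells. At 2000 UMIs, at least 1 GABAergic regulator was detected in 86.5% ± 6.57 of Glut/GABA cells and at least 1 glutamatergic regulator in 77.5% ± 9.38. Of the Glut/GABA cells, 127 of 310 came from control embryo 5. The share of cells among the highest doublet scores was 2.70% to 17.3% over embryos in Glut/GABA cells, 4.85% to 10.6% in GABA and 6.16% to 8.14% in Glut cells, and the part of droplets with more than 1 cell in these levels was not tested.

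**Figure D4:**
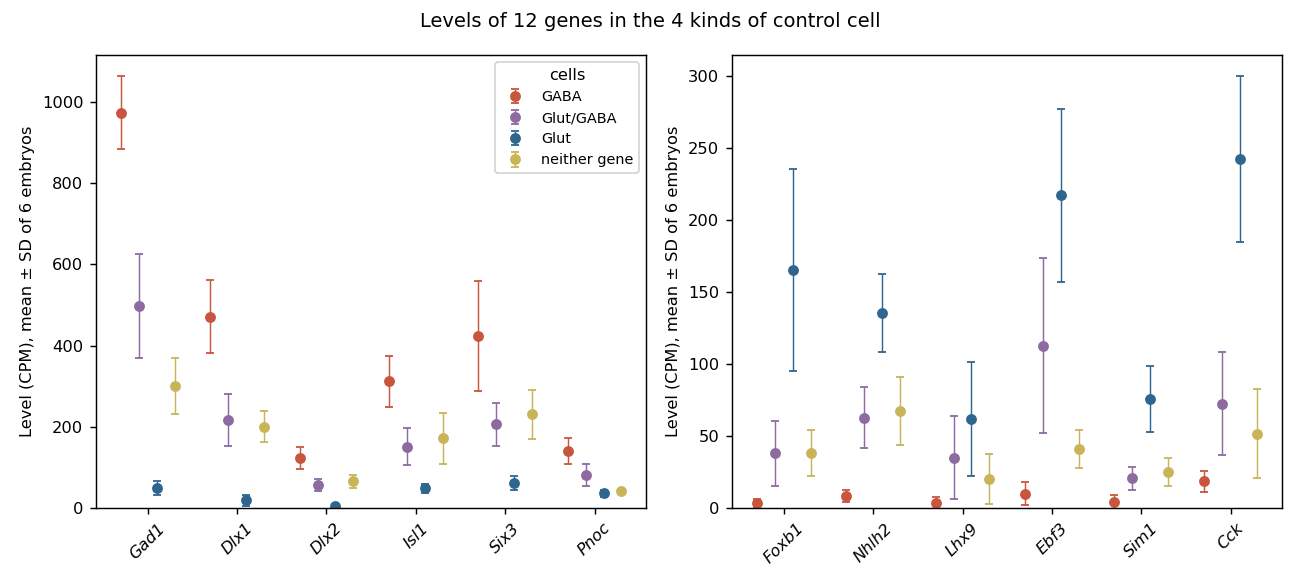
Mean ± SD over 6 control embryos of the level (CPM, linear axes from 0) of 12 genes in GABA, Glut/GABA, Glut and neither-gene cells, with genes higher in GABA cells on the left and lower on the right. Glut/GABA cells lie between the classes for all 12 genes, for example *Gad1* at 497, between 974 and 49.55 CPM.

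Whether the class difference depended on genotype was asked in 30 sums of 15 embryos, with 593 GABA and 2130 Glut cells in *Eed-cKO*. An *Eed-cKO* embryo gave 14 to 106 GABA cells. The paper reported a higher proportion of Glut/GABA cells in *Eed-cKO* than in control. By the class rule, such a cell counts as GABA or Glut when 1 class transcript is missed. The part of these cells in the class differences of *Eed-cKO* was not tested. *Eed* itself was at 31.1 ± 4.84 CPM in GABA and 32.5 ± 3.53 in Glut cells of control, and at 18.7 ± 10.1 and 23.96 ± 4.16 in *Eed-cKO*. The libraries tag 3′ ends, so that these reads can lie outside the floxed exons and do not check the deletion. Of 15112 genes tested, 140 passed for the interaction of class with genotype, which is 0.926%. The class difference was higher in *Eed-cKO* for 51 and lower for 89. With cells thinned to 2000 UMIs 67 passed, 44 of them among the 140, and without the *Eed-cKO* embryo of 14 GABA cells 133 passed. Libraries whose names share a prefix were of 1 genotype each, so whatever the prefix marks and genotype cannot be told apart.

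*Gad1* had the lowest adjusted p. The difference was 4.33 ± 0.11 in control (fitted on its own 12 sums) and 1.70 ± 0.08 in *Eed-cKO*, where *Gad1* was at 669 ± 131 CPM in GABA and 224 ± 66.1 in Glut cells and higher in GABA cells of 9 of 9 embryos (interaction -2.61 ± 0.15, adjusted p = 5.17e-17). *Gad2* followed, with 3.97 ± 0.10 and 1.91 ± 0.10, and 273 ± 57.3 and 75.6 ± 18.1 CPM in *Eed-cKO* (interaction -2.05 ± 0.15, adjusted p = 2.79e-13). *Gata3* was at 51.7 ± 27.6 and 34.2 ± 16.7 CPM in GABA and Glut cells of *Eed-cKO*, a difference of 0.99 ± 0.19 (interaction -4.59 ± 0.47, adjusted p = 3.25e-09). *Six3* (interaction -1.46 ± 0.16, adjusted p = 2.83e-08) and *Pmaip1* (-4.28 ± 0.50, adjusted p = 8.93e-08) completed the 5 named in this direction. For these 5 the GABA level exceeded the Glut level in *Eed-cKO* by less than in control on the log2 scale. Scaled with the 30 sums, *Pmaip1* was at 32.6 CPM in GABA and 0.400 in Glut cells of control. In *Eed-cKO* it was at 33.2 ± 16.4 and 12.2 ± 7.33. *Six3* was at 429 and 62.5 CPM in control and at 246 ± 79.3 and 99.0 ± 26.8 in *Eed-cKO*. In Glut cells of control *Gata3* held 8 and *Pmaip1* 7 UMIs, so their log2 interactions rest on few counts.

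In the other direction, *Nrn1*, neuritin, was at 8.66 ± 3.59 and 169 ± 25.5 CPM in GABA and Glut cells of control, scaled with the 30 sums, and at 48.0 ± 17.4 and 152 ± 42.9 in *Eed-cKO* (interaction 2.85 ± 0.25, adjusted p = 2.13e-11). *Cacna2d1*, a calcium channel subunit, was at 41.8 ± 12.2 and 443 ± 94.1 CPM in control and at 142 ± 38.4 and 409 ± 47.6 in *Eed-cKO* (interaction 1.81 ± 0.17, adjusted p = 5.07e-10). The homeobox gene *Shox2* was lower in GABA cells in control (-3.25 ± 0.35) and at 55.1 ± 28.0 against 33.7 ± 16.3 CPM in *Eed-cKO* (0.83 ± 0.19, interaction 4.08 ± 0.41, adjusted p = 1.70e-09). *Tcf7l2*, a Wnt pathway factor, had a difference of -2.01 ± 0.17 in control and 0.85 ± 0.16 in *Eed-cKO* (interaction 2.83 ± 0.30, adjusted p = 4.29e-09), and *Tbr1*, a T-box factor, of -3.97 ± 0.35 and 0.21 ± 0.21 (interaction 4.16 ± 0.45, adjusted p = 8.20e-09). The *Tcf7l2* levels were 149 ± 53.5 in GABA and 695 ± 420 CPM in Glut cells of control and 144 ± 73.7 and 109 ± 138 in *Eed-cKO*, and levels were not tested between genotypes. Of 40 tested GABAergic regulators the interaction was called lower for 14 and higher for 1 (*Nkx2-1*), and of 38 glutamatergic regulators higher for 11 and lower for none, against 0.926% of all genes called in either direction. The control values enter both the class difference and the interaction, so the 2 sets of values are not independent.

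**Figure D5:**
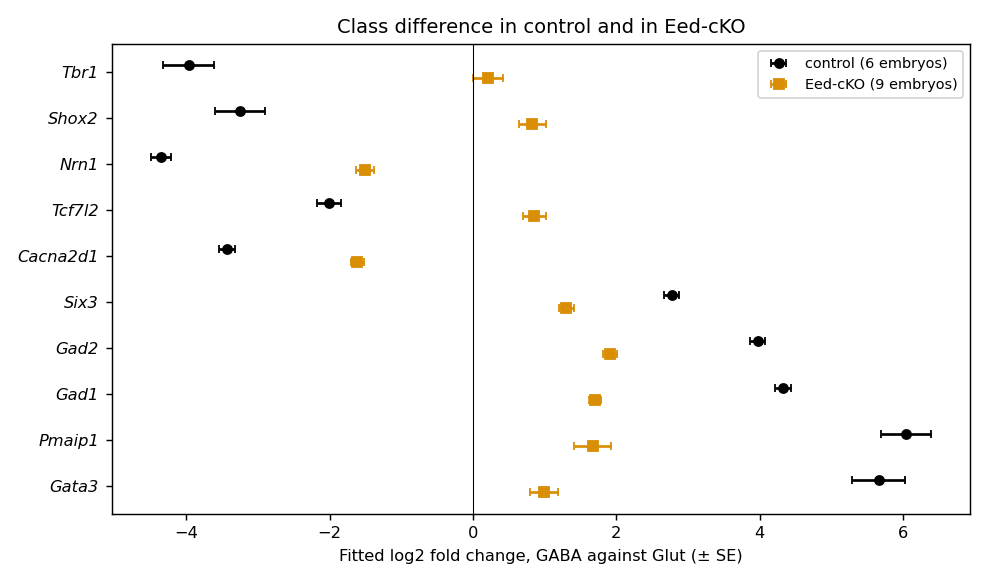
Fitted log2 fold change, GABA against Glut (± SE), in 6 control (black circles) and 9 *Eed-cKO* embryos (orange squares) for the 5 genes of smallest adjusted p in each direction of the interaction. All 10 squares lie nearer to 0 than the circles, for example *Gad1* at 1.70 against 4.33.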

How the data were processed

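Counts of UMIs per gene and cell were deposited by the authors, who made them with SureCell RNA Single-Cell (STAR 2.5.2b, SAMtools 1.3, mm10), removed shallow cells (the lowest deposited cell held 601 UMIs) and did not normalize them. The table held 16510 genes. From these counts, cells of at least 2000 UMIs were classed and summed per embryo and class. Genes with at least 15 UMIs over the sums and 2 in 1 sum entered the quasi-likelihood fit of edgeR (version 4.0.16, R 4.3.3, TMM factors, Benjamini-Hochberg adjusted p below 0.05), with the embryo as a block. Levels of both classes of an embryo deviated together (correlations of 0.363 to 0.797, against at most 0.183 with another embryo). limma 3.58.1, DESeq2 1.42.0, scanpy 1.11.5 (Scrublet, highest 6% per library), scipy 1.17.1 and GENCODE vM21, which placed 15850 genes, were also used. SE is the fold change divided by the square root of F.

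The class rule, gene lists and named genes were chosen with earlier results of these data known. Named were all tested genes of both transmitter lists, the 10 largest changes per direction with at least 100 UMIs and 1 sign in all embryos, up to 6 called genes per direction and list by adjusted p, and 5 per direction of the interaction. On simulated data, edgeR recovered 64.6% of 99 genes changed by log2 1 and 91% of 100 changed by log2 2 among 14054, with 4.32% false calls, and for the interaction 51% and 80% of 100 each among 15058, with 2.96%. The simulated counts followed a negative binomial distribution with the fitted dispersion trend, the kind of model that edgeR fits. The rates hold for such data and do not measure false calls in the real counts. The planned test of UMIs per cell is not reported, since the class rule depends on depth. Embryos are separate animals. Some genes that enter the counts are not reported here by name.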

Additional observations from a re-analysis of the deposited data

Results flagged for a closer look

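Values of 1 embryo stood far from the other 5 in 16 of 171 groups of 6 sums or shares. The rule would flag about 1 in 20 groups if values were independent and normally distributed. Some groups held few UMIs (*Neurod2*, 3 in GABA cells), and all groups share the same embryos. The count of 16 is therefore not read as an excess over chance. Of the 16, 10 were values of control embryo 5, which holds library F4650_E2S4. In its GABA cells *Foxb1* (9.17 CPM), *Fezf1* (13.3), *Sim1* (13.3) and *Pmch* (9.17) were higher and *Sp8* (32.5) and *Robo2* (43.4) lower than in the other embryos. In its Glut cells *Dlx1* (42.7 CPM), *Th* (27.1) and *Nptx2* (71.6) were higher. Its share of Glut/GABA cells was 10.8%, against 3.31% to 4.91% in the other embryos. Values of other embryos were *Neurod2* in GABA cells (1.89 CPM, embryo 6), *Gap43* in GABA cells (3106 CPM, embryo 6), *Pmch* in Glut cells (355 CPM, embryo 6), *Lhx8* in Glut cells (2.998 CPM, embryo 4), *Lhx6* in GABA cells (157 CPM, embryo 4) and *Efna5* in GABA cells (269 CPM, embryo 1).

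For 28 of the named genes the class difference differed between *Eed-cKO* and control by the interaction test (log2, *Eed-cKO* minus control). It was lower in *Eed-cKO* for 14 genes: *Gad1* -2.61, *Gad2* -2.05, *Pmaip1* -4.28, *Gata3* -4.59, *Lhx8* -2.19, *Sp8* -2.31, *Dlx1* -1.60, *Lhx6* -1.80, *Dlx2* -1.63, *Isl1* -0.98, *Six3* -1.46, *Six6* -1.86, *Pnoc* -1.13 and *Pcdh8* -0.80. It was higher for 14 genes: *Mab21l1* 4.16, *Neurod2* 3.26, *Fezf1* 2.89, *Ebf3* 2.01, *Nkx2-1* 1.00, *Nhlh2* 1.66, *Lhx9* 2.90, *Cbln1* 1.61, *Nptx2* 1.74, *Nrn1* 2.85, *Cacna2d1* 1.81, *Shox2* 4.08, *Tcf7l2* 2.83 and *Tbr1* 4.16. The adjusted p of these genes reached 0.0366 at most. In control, *Mab21l1* and *Neurod2* held 3 UMIs each in GABA cells, and *Gata3* 8 and *Pmaip1* 7 in Glut cells.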

How the results depend on the processing

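The number of genes called between the classes, 896, stayed within 1.5 times of itself under most alternatives (693 to 851 with 1 embryo left out, 708 to 1083 under most others), but 446 passed with no replicate block, 431 with DESeq2, 391 with limma-voom and TREAT and 372 with cells thinned to 2000 UMIs. For the newer edgeR quasi-likelihood fit, an alternative chosen after seeing the data like those without library F4650_E2S4, with equal depth of both sums and without the *Eed-cKO* embryo of fewest GABA cells, it was 960. All 431 genes of DESeq2 and 443 of the 446 without the block were among the 896, and no gene called both there and among the 896 changed its sign in any alternative. The interaction count, 140, was 113 to 138 with 1 control embryo left out and 67 with thinned cells. Of 86 named genes that passed, 64 passed under all of the 24 alternatives in which they were tested, and 22 lost the call in at least 1, 17 of them with thinned cells. The direction of *Slc1a3* turned (1.05) without cells that held glial or cycling markers, the only named gene to reverse. That filter counts *Slc1a3* UMIs among its markers, so the turn cannot be told apart from the choice of cells. Thinning kept 60.7% of GABA and 69.5% of Glut cells in their class, and fewer genes were tested. At this depth, a gene of low count that did not pass is not shown to be alike in both classes.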
